A study of Mus musculus with 67 samples.

Results

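The absorptive enterocyte is the villus cell that digests and takes up nutrients, and 33 of its genes were followed in bulk RNA-seq of mouse small intestinal organoids and crypts. The genes were taken by name from a list of brush border enzymes, nutrient transporters and lipid handling genes, and all 33 have a row among the 29579 genes of the table. They fall into 8 brush border hydrolases, 6 nutrient transporters, 9 genes of lipid and retinoid handling, 3 genes of microvillus structure, 2 purine enzymes and 5 metabolic or other genes. The study asked whether a culture medium of 8 components (8C) gives organoids the features of regenerating epithelium, and whether 2 of its components act in irradiated mice. There were 49 organoid libraries in 10 conditions and 18 crypt libraries in 9 groups.

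All organoids came from crypts of the proximal small intestine of mice 6 to 12 weeks old. ENR, the conventional medium (7 libraries), held EGF at 50 ng/mL, the BMP inhibitor noggin at 100 ng/mL and the WNT agonist R-Spondin 1 at 500 ng/mL. The 8C medium (7 libraries) held the histone deacetylase inhibitor valproic acid (VPA, 500 µM), the EZH2 inhibitor EPZ6438 (2 µM), the BMP receptor inhibitor LDN193189 (0.2 µM), the GSK3 inhibitor GSK3iXV (0.1 µM), the p38 inhibitor Pexmetinib (1 µM), EGF (50 ng/mL), bFGF (20 ng/mL) and R-Spondin 1 conditioned medium (10%). Conditions named 8C -VE (7 libraries), 8C -V (6) and 8C -E (7) lacked both VPA and EPZ6438, VPA alone and EPZ6438 alone. 8C -GSK3i, 8C -Pex, 8C -bFGF and 8C -EGF (3 libraries each) lacked the named component, and ENR +VE (3 libraries) was ENR with VPA and EPZ6438 added, at doses the labels do not give. Crypts came from normal C57BL/6 mice, whose age and sex are not stated for these libraries, and from 8-week-old female C57BL/6 mice 1, 2, 3 or 5 days after a single dose of 12 Gy (IR), without or with daily gavage of VPA at 40 mg/kg and EPZ6438 at 0.6 mg/kg (IR+VE), with 2 libraries in each of the 9 groups. The study's legends give mice as the replicates, 2 for the crypts of day 3 and 3 for organoids in ENR and 8C and for the removal of single components. The labels tie no library to a mouse, and where a group has 6 or 7 libraries, or no legend covers it, which libraries were separate animals is not stated, so that p-values measure the spread between these libraries, part of which may be technical. No 2 libraries held identical values.

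Enterocytes arise from crypt progenitors and mature as they move up the villus. On their apical face, microvilli bundled by villin and linked by protocadherins carry hydrolases that cut sugars and peptides, with transporters that take up the products. Inside the cell, absorbed fat is carried by fatty acid binding proteins, packed onto apolipoproteins with the help of microsomal transfer protein, and exported as chylomicrons. HNF4, CDX2, HNF1 and GATA4 are the transcription factors best known for driving these genes.

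Promoter sequences are shown for 4 of the genes, chosen by name. For each of these 4 the RefSeq start equals the start of the gene in the GENCODE annotation. Each is the 250 bases before the start, read 5′ to 3′ on the gene's strand (RefSeq, GRCm38.p6), and capitals mark a match to a searched motif. Treh (chr9:44672983-44673232, plus strand) encodes the brush border trehalase, Alpi (chr1:87101607-87101856, minus strand) intestinal alkaline phosphatase, Sis (chr3:72967864-72968113, minus strand) sucrase-isomaltase, and Slc2a2 (chr3:28697653-28697902, plus strand) the basolateral glucose and fructose transporter GLUT2.
Treh: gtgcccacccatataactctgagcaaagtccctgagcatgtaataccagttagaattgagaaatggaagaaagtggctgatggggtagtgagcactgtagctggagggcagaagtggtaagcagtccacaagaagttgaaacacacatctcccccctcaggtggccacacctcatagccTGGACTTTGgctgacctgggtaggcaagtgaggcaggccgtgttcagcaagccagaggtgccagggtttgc
Alpi: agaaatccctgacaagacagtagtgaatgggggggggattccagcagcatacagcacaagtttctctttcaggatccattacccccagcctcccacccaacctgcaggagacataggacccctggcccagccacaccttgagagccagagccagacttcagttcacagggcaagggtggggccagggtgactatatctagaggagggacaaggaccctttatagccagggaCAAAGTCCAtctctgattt
Sis: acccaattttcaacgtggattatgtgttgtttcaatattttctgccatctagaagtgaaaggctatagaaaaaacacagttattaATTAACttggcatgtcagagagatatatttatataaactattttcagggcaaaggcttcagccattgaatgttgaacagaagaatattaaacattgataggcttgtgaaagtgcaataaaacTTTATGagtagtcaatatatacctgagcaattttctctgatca
Slc2a2: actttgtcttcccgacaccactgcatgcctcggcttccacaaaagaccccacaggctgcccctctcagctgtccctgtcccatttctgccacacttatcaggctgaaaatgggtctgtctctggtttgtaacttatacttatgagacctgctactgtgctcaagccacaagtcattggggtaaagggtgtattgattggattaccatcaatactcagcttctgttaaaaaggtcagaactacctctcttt
The HNF4 motif CAAAGTCCA, searched on both strands, lies 71 to 63 bases before the start of Treh, on the reverse strand, and 19 to 11 bases before that of Alpi. In Sis, the CDX motif TTTATG lies 43 to 38 bases before the start and the HNF1 motif GTTAAT 165 to 160 bases before it, on the reverse strand. None of these 3 motifs nor the GATA motif AGATAA is in the Slc2a2 window. Of the 33 genes, 32 had a promoter entry. CAAAGTCCA was present in 3 of them (Treh, Alpi and Cyp3a11) against 0.384% of 32851 promoters, TTTATG in 6 against 10.8%, AGATAA in 5 against 9.99% and GTTAAT in 5 against 6.43%. These are letter matches only.

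Levels are given as TPM, read numbers scaled for transcript length and library size, and changes as log2 fold changes of TPM + 1, on which 1 is a 2-fold change and changes of low genes are understated. A gene was called changed at a Benjamini-Hochberg adjusted p under 0.05 in limma and at least 2-fold. TPM keeps no read number, and how deeply a library was sequenced is therefore unknown. Mitochondrial transcripts took 1.52% to 6.64% of the summed TPM in organoids and 10.6% to 48.4% in crypts, and levels were not compared between the 2 kinds of sample. In organoids 12 leukocyte genes summed to 0.738 to 5.33 TPM. Summed markers of other epithelial cells were high there, at 1174 to 15670 TPM for Paneth cells, 2142 to 8530 TPM for goblet cells, 1105 to 4123 TPM for crypt base stem cells and 345 to 2839 TPM for enteroendocrine cells.

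The genes spanned a wide range of levels in ENR. Fabp1 and Fabp2, the liver and intestinal fatty acid binding proteins, were among the highest, at 762, 2997 and 3890 TPM (lowest, median, highest of 7) and 304, 1209 and 1367 TPM. At the other end was Slc10a2, the ileal bile acid transporter, at 0.277, 0.749 and 3.00 TPM. Fabp6, the bile acid binding protein of the ileum, was also low, at 2.16, 3.09 and 7.10 TPM, and Nt5e, the ecto-5′-nucleotidase that makes adenosine, did not pass 0.442 TPM. The ileal pair was thus near the floor in these organoids of proximal intestine. Of the 33 genes, 15 had their highest organoid mean in ENR and 9 in ENR +VE, while 23 had their lowest in 8C -EGF. The same ranking was not made for all genes.

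**Figure D1:**
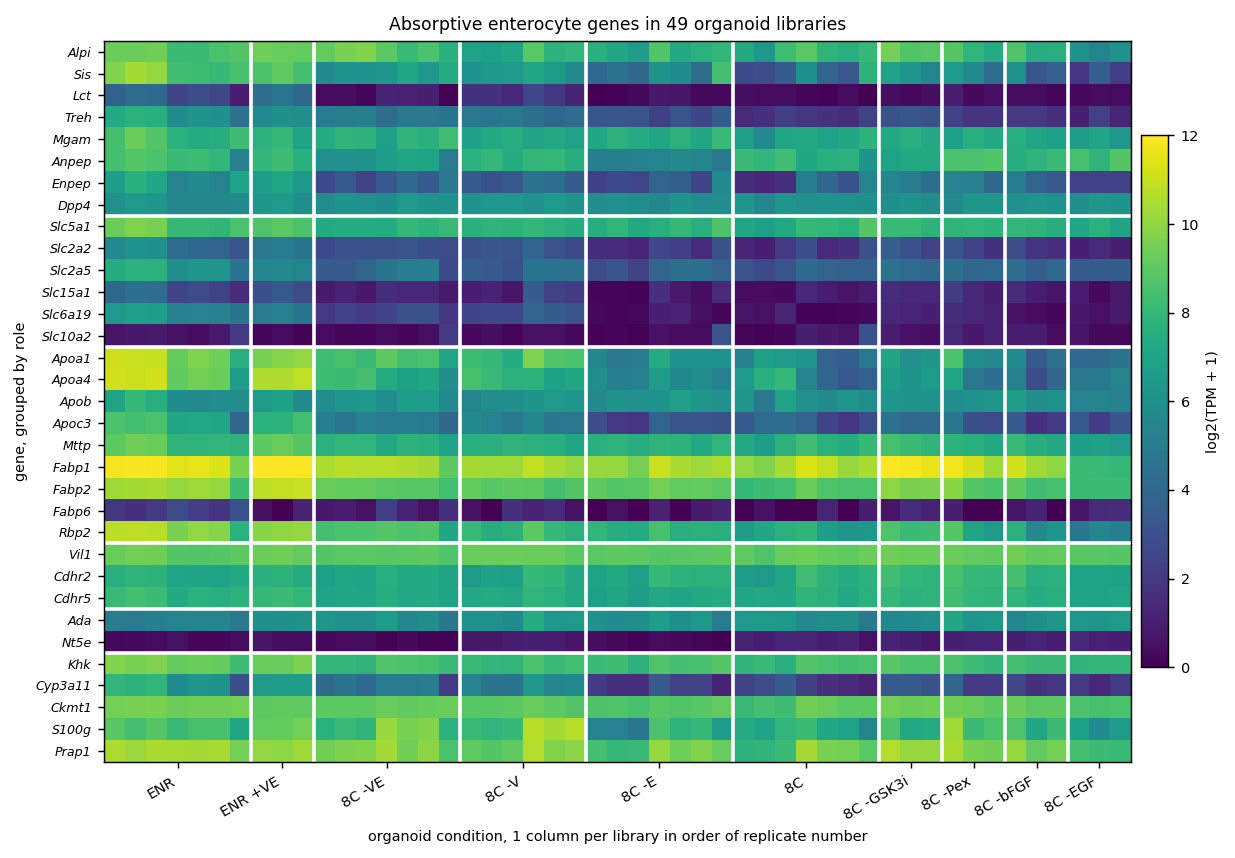
Level of each of the 33 genes (rows, grouped by role) in the 49 organoid libraries (columns, by condition and replicate number) as log2(TPM + 1), from 0 to 12 on the colour scale. The ENR and ENR +VE columns are the brightest for most rows, and within ENR the libraries numbered 1 to 3 are brighter than the rest.

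ENR libraries did not form a single cluster. The mean log2(TPM + 1) of the 33 genes averaged 7.75 in ENR libraries 1 to 3, 6.79 in libraries 4 to 6 and was 6.06 in library 7. In 8C the same numbers averaged 5.12, 5.33 and 5.40. All 3 of the first set lay above all 3 of the second for 27 of 31 genes tested, against 48.4% of all genes, and 1 gene, Ada, lay below, against 17.5%. What the replicate numbers stand for is not stated, so within-set values are given beside the comparisons with ENR. The share of all genes called was counted for the main fits only. It was not counted within sets, under other settings or with libraries left out.

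Organoids in 8C held less of most of these genes than organoids in ENR. Of 32 genes tested, 21 fell and 0 rose, where 3.31% of all 12665 genes tested fell and 11.9% rose, and the median change was -1.29 against 0.08 over all genes. An unadjusted p under 0.05 in limma was reached by 26 of the 32 and by 5442 of all 12665 genes. Of the 26, 1, Ada, was higher in 8C. The falls covered 6 of 8 hydrolases, 5 of 6 transporters, 6 of 9 lipid and retinoid genes and 4 of 5 metabolic genes, while the 3 microvillus genes were not called. In these bulk libraries, fewer enterocytes and less RNA per enterocyte cannot be told apart.

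Sucrase-isomaltase fell the most among hydrolases. Sis stood at 266, 362 and 1329 TPM in ENR and at 5.38, 10.4 and 218 TPM in 8C. Every 8C library lay below every ENR library, with library 7 the highest in 8C, and the change was -4.78 ± 0.71 (SE, adjusted p = 5.1e-05, limma). Treh showed the tighter separation, from 21.6, 72.4 and 201 TPM down to 1.70, 2.30 and 4.18 TPM (-4.60 ± 0.40, adjusted p = 1.4e-07). Lactase, which splits milk sugar, was low to begin with, and Lct went from 0.973, 6.15 and 17.5 TPM to 0, 0.257 and 0.362 TPM. Its groups did not overlap either. Enpep, the aminopeptidase A that removes acidic residues, fell by 3.28 with overlapping groups (39.4, 106 and 193 TPM against 1.41, 7.20 and 39.8 TPM). Falls near the 2-fold limit were those of Mgam, maltase-glucoamylase (-1.19 ± 0.32), and Alpi (-1.05 ± 0.32), and Alpi was no longer called without ENR library 1, 2 or 3 or without 8C library 1 or 2. Anpep, the peptide-trimming aminopeptidase N, was not called, at 36.6, 313 and 460 TPM in ENR and 73.8, 211 and 315 TPM in 8C (-0.35 ± 0.47). Dpp4, dipeptidyl peptidase 4, was not called either, at 45.9, 49.7 and 87.4 TPM against 44.7, 68.3 and 81.8 TPM.

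Amino acid and sugar uptake showed the deepest single fall of the set. Slc6a19, the apical transporter of neutral amino acids, measured 24.5, 39.2 and 108 TPM in ENR. In 8C it measured 0.0855, 0.201 and 1.36 TPM, below 1 TPM in 6 of 7 libraries. The groups were far apart, with a change of -5.33 ± 0.33 (SE, adjusted p = 2.4e-09, limma). Both hexose transporters fell without overlap, Slc2a5, the fructose carrier GLUT5, with a change of -3.08 and Slc2a2 with -2.83. So did the peptide transporter Slc15a1 (-2.38). The sodium-glucose transporter Slc5a1 fell less, from 230, 375 and 823 TPM to 108, 200 and 441 TPM (-1.06 ± 0.35), and its groups overlapped. Its call was lost with the replicate block, within numbers 4 to 6 (-0.10), and without ENR library 1, 2 or 3 or 8C library 1 or 2. Slc10a2 was not called (-0.02 ± 0.40), and its 7.04 TPM in 8C library 7 was the highest value in that group.

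Of the 6 lipid and retinoid genes that fell, 3 were apolipoproteins. Apoa1, the main protein of HDL, stood at 181, 829 and 2155 TPM in ENR and 11.1, 38.3 and 112 TPM in 8C, without overlap (-4.52 ± 0.61, adjusted p = 1.8e-05). Apoa4, a chylomicron protein, fell by 4.19 and Apoc3, an inhibitor of lipoprotein lipase, by 3.99. Rbp2, the retinol carrier of the enterocyte, fell by 2.95, Fabp6 by 1.81 and Fabp2 by 1.42. The assembly genes were not called. Apob, the structural protein of chylomicrons, was at 53.4, 57.3 and 261 TPM in ENR and 27.8, 66.9 and 120 TPM in 8C. Mttp, which loads lipid onto it, changed by -0.84 ± 0.31 and Fabp1 by -0.91 ± 0.33, both with an adjusted p under 0.05 but short of 2-fold. Apob and Mttp were thus within the spread or under the limit, whereas the 3 exchangeable apolipoproteins fell.

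Genes of microvillus structure were not called. Vil1, which encodes the actin bundler villin, measured 433, 501 and 696 TPM in ENR and 418, 576 and 652 TPM in 8C (0.07 ± 0.13). Cdhr2 and Cdhr5, the protocadherins that link microvillus tips, changed by 0.02 ± 0.25 and -0.43 ± 0.17. The groups overlapped for all 3. Ada, adenosine deaminase, moved up short of the limit (0.78 ± 0.23, adjusted p = 0.013), from 25.8, 35.8 and 44.9 TPM to 27.7, 62.5 and 93.4 TPM.

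In the remaining group, Cyp3a11, a drug-metabolising cytochrome P450, had the largest fall, from 6.57, 77.4 and 241 TPM to 1.19, 3.77 and 9.73 TPM (-4.24 ± 0.65, adjusted p = 6.5e-05). It has close paralogs, so reads may have been split between them. Prap1, a secreted acidic protein of the upper gut, fell by 1.39, S100g, the calcium carrier calbindin-D9k, by 1.19 and Khk, ketohexokinase of fructose metabolism, by 1.00. Ckmt1, mitochondrial creatine kinase, changed by -0.69 ± 0.17 and was not called. Over all roles, 9 of the 32 genes lay below ENR in every 8C library, against 3.37% of genes tested, and 0 lay above, against 13.9%. Nt5e, too low to be tested, lay above ENR in every 8C library, at 0.469 to 1.43 TPM against 0.146 to 0.442 TPM. The 9 below were Sis, Treh, Lct, Slc6a19, Slc2a5, Slc2a2, Slc15a1, Apoa1 and Fabp6. Within replicate numbers 1 to 3, 25 genes fell and 1 rose, within 4 to 6, 14 fell, and without number 7, 23 fell. The share of all genes called in these 3 fits was not counted. Of the 21 calls, 14 held under every alternative and every left-out library, and the others were those of Alpi, Mgam, Enpep, Slc5a1, Khk, S100g and Prap1. All 7 of these were lost within numbers 4 to 6, where Enpep was at -1.44, Prap1 at -0.58 and Mgam at -0.36, against -5.68, -2.45 and -2.26 within numbers 1 to 3. Markers of other epithelial cells moved as well. Paneth cell genes fell in 6 of 8 tested, and their sum went from 12124 to 14879 TPM in ENR to 1174 to 4778 TPM in 8C. Goblet cell genes fell in 5 of 8 and tuft cell genes in 3 of 4, and summed crypt base stem cell markers went from 2749 to 4123 TPM down to 1105 to 2707 TPM, although of those 10 genes 2 fell and 3 rose. Of 9 enteroendocrine cell genes 2 rose and 1 fell, and the stromal gene Vim rose by 1.01. The part of these cells in the result was not tested.

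**Figure D2:**
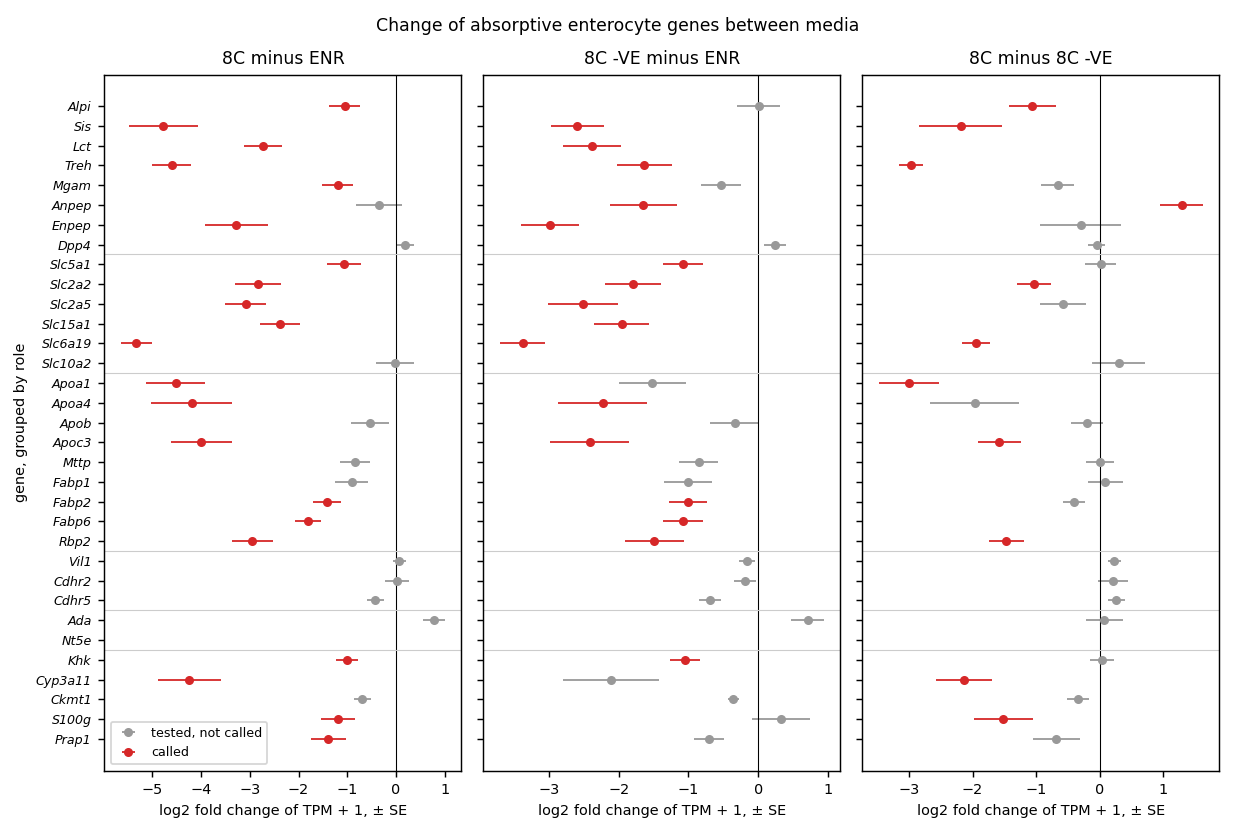
Log2 fold change of TPM + 1 (horizontal axis, points with SE bars) of each gene, grouped by role, for 8C minus ENR, 8C -VE minus ENR and 8C minus 8C -VE, with called genes in red and tested genes that were not called in grey. In the first panel 21 genes are red and all lie left of 0, with Slc6a19 farthest at -5.33, and in the last panel Anpep is the red point on the right.

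Organoids in 8C -VE, without VPA and EPZ6438, also held less of many of these genes than organoids in ENR. Against ENR, 16 of 31 genes fell in 8C -VE and 0 rose, where 2.07% of 11990 genes fell and 1.13% rose. An unadjusted p under 0.05 in limma was found for 24 of the 31 and for 2689 of the 11990. The median change was -1.08 against 0.08 over all genes. Transporters were again prominent, with all 5 tested falling. Slc6a19 measured 2.67, 3.95 and 6.85 TPM in 8C -VE (-3.38 ± 0.33, adjusted p = 3.1e-05), below every ENR library and above every 8C library. Enpep led the hydrolases at 4.19, 8.85 and 26.3 TPM (-2.98 ± 0.41, adjusted p = 0.00044), with Sis at -2.59 and Lct at -2.38. Apoc3 led the lipid genes, from 14.5, 151 and 393 TPM in ENR to 15.3, 29.7 and 38.0 TPM (-2.42 ± 0.56). Khk, at 223, 282 and 413 TPM, was the 1 metabolic gene called (-1.04 ± 0.22). The calls of Khk and Slc5a1 were lost within numbers 4 to 6 and without library 1, 2 or 3 of either group, and those of Anpep, Apoa4, Rbp2, Fabp2 and Fabp6 without various single libraries, while the other 9 held under every alternative and every left-out library. With the replicate number as a block, 19 fell, the added ones being Cyp3a11 (-2.11, adjusted p = 0.0078 in limma against 0.068 without the block), Apoa1 (-1.52, 0.015 against 0.061) and Fabp1 (-1.01, 0.00028 against 0.083), each lower in all 7 pairs. Alpi did not follow, at 193, 496 and 848 TPM (0.01 ± 0.31). Summed Paneth cell markers were at 9906 to 15670 TPM in 8C -VE, a range that takes in that of ENR, and 2 of 8 Paneth cell genes fell. The count dropped to 10 without ENR library 1, 2 or 3. Within numbers 1 to 3 it was 23 falls and 1 rise, and within numbers 4 to 6, 14 falls and 1 rise.

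The effect of VPA and EPZ6438 together within the 8C medium was read from 8C against 8C -VE. Of 29 genes tested, 10 fell and 1 rose, where 1.62% of 12622 genes fell and 9.06% rose, and the median was -0.41 against 0.01. Apoa1 dropped from 135, 346 and 522 TPM in 8C -VE to 11.1, 38.3 and 112 TPM in 8C (-3.01 ± 0.47, adjusted p = 0.00014). Treh, at 17.8, 26.8 and 34.7 TPM without the compounds, fell by 2.97 with an SE of 0.18 (adjusted p = 3.9e-09). Slc6a19 fell by 1.95 and Cyp3a11 by 2.13. Apoa1, Treh and Slc6a19 were the 3 genes with every 8C library below every 8C -VE library, against 1.79% of genes tested, and 0 lay above, against 9.17%. Nt5e, too low to be tested, lay above in every 8C library, at 0.469 to 1.43 TPM against 0.0336 to 0.316 TPM in 8C -VE. Further falls were those of Sis (-2.19), Apoc3 (-1.58), S100g (-1.51), Rbp2 (-1.47), Alpi (-1.06) and Slc2a2 (-1.03), and the calls of Sis, S100g, Alpi and Slc2a2 were each lost when 1 of some single libraries was left out, 8C library 6 for Sis and Slc2a2 and 8C -VE library 5 or 6 for S100g. The S100g call was also lost within numbers 1 to 3 (-0.43), and those of Sis (-2.18) and Alpi (-0.44) within numbers 4 to 6. Alpi further lost its call with the replicate block, a pseudocount of 0.1, a minimum of 5 TPM, no minimum and plain eBayes. Anpep rose, from 30.3, 68.3 and 137 TPM to 73.8, 211 and 315 TPM (1.29 ± 0.34, adjusted p = 0.010). Its groups overlapped, and it was not called within numbers 4 to 6. Slc5a1 (0.02 ± 0.25) and Fabp1 (0.09 ± 0.27) were not called. In the same contrast 7 of 8 Paneth cell genes fell, with sums at 1174 to 4778 TPM in 8C against 9906 to 15670 TPM in 8C -VE, and 5 of 8 goblet cell genes fell. Of 10 crypt base stem cell genes 2 fell, Olfm4 by 5.93, and Tnfrsf19 rose, and the stromal gene Vim rose by 1.43, with summed stroma and muscle markers at 20.1 to 30.2 TPM against 6.53 to 11.3 TPM. The part of these in the result was not tested.

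**Figure D3:**
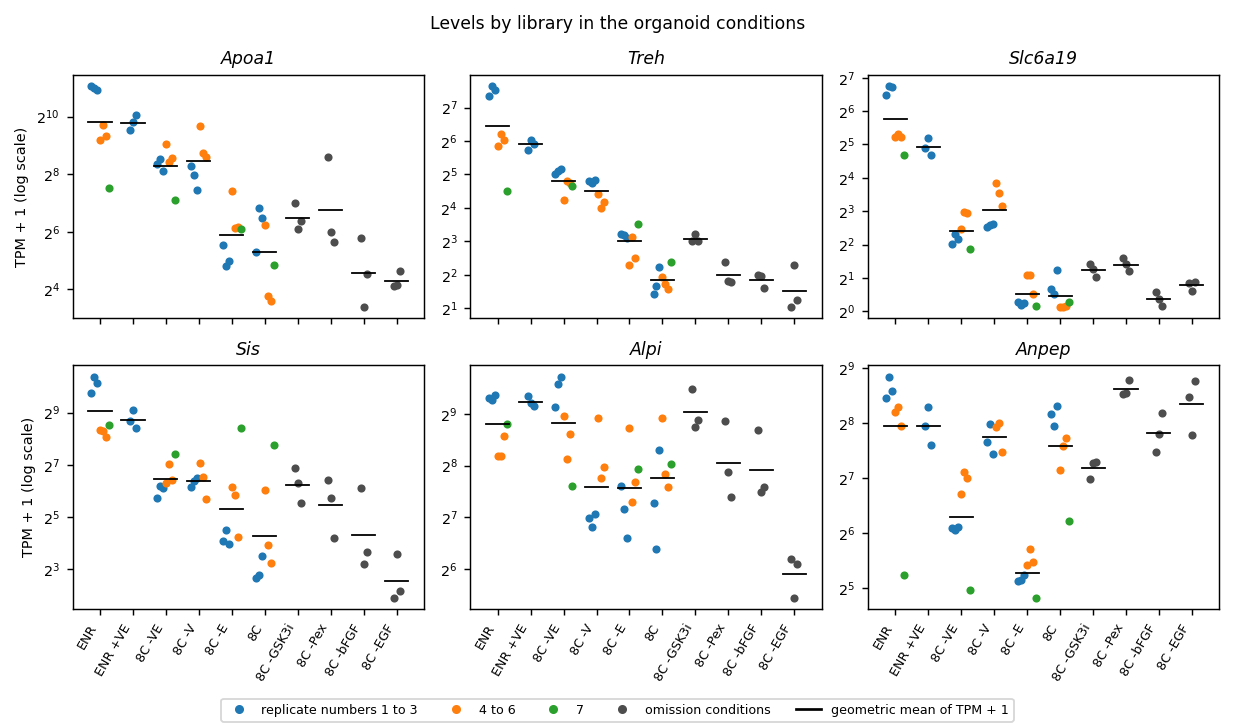
TPM + 1 (log axis) of Apoa1, Treh, Slc6a19, Sis, Alpi and Anpep in each organoid library by condition, with points coloured by replicate number set and a bar at the geometric mean. Treh and Slc6a19 step down from ENR to 8C -VE and again to 8C, and Anpep is low in 8C -VE and 8C -E and high in 8C -V and 8C.

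The contrasts of single compounds share the 8C -VE libraries with the one above, so their values are given side by side. VPA alone, as 8C -E minus 8C -VE, lowered 9 of 29 genes and raised 0, where 1.07% of 12238 genes fell and 3.11% rose. In limma 12 of the 29 and 2550 of the 12238 had an unadjusted p under 0.05. Apoa1 fell to 26.9, 68.3 and 168 TPM (-2.42 ± 0.36, adjusted p = 0.00027), Slc6a19 to 0.118, 0.204 and 1.14 TPM (-1.89 ± 0.22) and Treh to 3.91, 7.82 and 10.4 TPM (-1.82 ± 0.19). Cyp3a11 (-2.19), Apoc3 (-2.04), Apoa4 (-1.77), Alpi (-1.25), Anpep (-1.02) and Slc2a2 (-1.01) complete the 9. The last 3 lost their call without single libraries. S100g was lower in 8C -E in all 7 pairs, at 25.2 to 389 TPM against 203 to 1141 TPM, and was called with the replicate block only (-2.02, adjusted p = 0.00027 in limma, against 0.052 without it). Genes of other lineages fell in the same contrast, 6 of 8 of Paneth cells, 4 of 8 of goblet cells, 4 of 9 of enteroendocrine cells and 2 of 4 of tuft cells, and their part in the result was not tested. EPZ6438 alone, as 8C -V minus 8C -VE, raised 2 of 31 genes and lowered 0, where 2.96% of 12263 genes rose and 0.261% fell. In limma 8 of the 31 and 1733 of the 12263 had an unadjusted p under 0.05. The 2 genes raised were Anpep, at 173, 222 and 256 TPM and above every 8C -VE library (1.46 ± 0.28, adjusted p = 0.0049), and Lct, at 1.27, 2.28 and 5.07 TPM (1.14 ± 0.25, adjusted p = 0.013). Within numbers 4 to 6, neither was called, and Lct was not called without 8C -V library 4. Nt5e, too low to be tested, lay above every 8C -VE library in 8C -V, at 0.559 to 1.09 TPM against 0.0336 to 0.316 TPM. Alpi was lower in 8C -V than in the 8C -VE library of the same number in all 6 pairs, at 111 to 484 TPM against 278 to 848 TPM, but was not called (-1.24 ± 0.39, adjusted p = 0.090, and -1.44 with an adjusted p of 0.083 in limma with the replicate block). Slc6a19 was higher in all 6 pairs and short of 2-fold (0.65 ± 0.26, adjusted p = 0.23, and 0.57 with an adjusted p of 0.012 with the block). Enteroendocrine cell genes rose in 3 of 9 and fell in 1, a part that was not tested. For Apoa1 the 3 differences from 8C -VE were -2.42 with VPA, 0.15 with EPZ6438 and -3.01 with both. For Treh they were -1.82, -0.32 and -2.97. For Anpep they were -1.02, 1.46 and 1.29. The interaction of VPA and EPZ6438 was called in 0 of 29 genes, where 0.438% of 12556 genes had a positive and 0.143% a negative call. Its unadjusted p in limma was under 0.05 in 4 of the 29 and in 478 of the 12556. Its intervals were wide, as for Treh (-0.83 ± 0.28, adjusted p = 0.38). Within numbers 1 to 3 it was called in 7 genes and within 4 to 6 in 3.

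Added to ENR, the same compounds gave a call for Fabp6 alone when all 7 ENR libraries were pooled, and 11 calls with the replicate block. Against ENR, 1 of 31 genes fell in ENR +VE and 0 rose, where 0.738% of 12324 genes fell and 8.13% rose. An unadjusted p under 0.05 in limma was found for 6 of the 31 and for 3853 of the 12324. The fall was that of Fabp6, to 0, 0.412 and 1.29 TPM (-1.65 ± 0.33, adjusted p = 0.0042). Apoa1 was at 732, 903 and 1053 TPM (-0.02 ± 0.68) and Treh at 52.6, 59.3 and 64.5 TPM (-0.55 ± 0.59), both inside the pooled ENR range. ENR libraries 1 to 3 held more than any of these, at 1939 to 2155 TPM of Apoa1 and 162 to 201 TPM of Treh. ENR libraries 4 to 6 held 581 to 829 and 56.9 to 72.4 TPM, and library 7 held 181 and 21.6 TPM. Apoa4, at 1495, 1507 and 1822 TPM, and Fabp1, at 5386, 5479 and 6128 TPM, were not called, although all 3 Fabp1 values lay above the 7 of ENR. The count turned on which ENR libraries were used. Against numbers 1 to 3, 11 genes fell and 0 rose, and against numbers 4 to 6, 5 rose and 1 fell. Of 8 Paneth cell genes 4 fell, their sum being 4930 to 5333 TPM, below every ENR library, and their part in the result was not tested. The difference between the effects of the compounds in the 2 media was called for 1 of 31 genes, Treh (-2.42 ± 0.55, adjusted p = 0.037), with 0.318% of 12591 genes called negative and 0.262% positive. That call was lost with the replicate block and when any of 14 of the 24 libraries was left out, among them each ENR +VE library. With replicate numbers 1 to 3 of the 7-library groups, 6 genes were called negative and 2 positive, and with numbers 4 to 6, 12 negative and 0 positive, Treh being at -1.71 and -2.71. For Apoa1 the same term was -2.98 ± 0.85 (adjusted p = 0.16).

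Leaving out single components of 8C gave few calls, with 3 libraries against 7. Without the GSK3 inhibitor, 0 of 29 genes were called in limma, as were 0% of genes in either direction. An unadjusted p under 0.05 in limma was found for 11 of the 29 and for 836 of all 12806 genes. The median change was 0.65 against -0.05 over all genes. Fabp2 was at 779, 804 and 992 TPM against a highest value of 641 TPM in 8C (1.19 ± 0.22, adjusted p = 0.19). Against 8C libraries 1 to 3, 12 genes rose, and against 8C libraries 4 to 6, 1 rose. Summed enteroendocrine markers were at 804 to 886 TPM without the inhibitor, at 1515 to 1849 TPM in 8C libraries 1 to 3 and at 750 to 820 TPM in 8C libraries 4 to 6. In the deposited column order, libraries 1 to 3 of each omission stand beside 8C libraries 4 to 6. The shared numbers were therefore not taken to mark matched libraries, and what the column order stands for is not stated. Without Pexmetinib, 0 of 30 were called (0.334% of genes rose and 0.148% fell), with Anpep at 370, 376 and 440 TPM, above every 8C library. In limma 6 of the 30 and 1676 of all 12860 genes had an unadjusted p under 0.05. Goblet cell genes rose there in 3 of 8, tuft cell genes in 3 of 4 and Paneth cell genes in 2 of 8. Without bFGF, 0 of 29 were called (0% of genes rose, 0.00779% fell). There 0 of the 29 and 713 of all 12834 genes had an unadjusted p under 0.05 in limma. Nt5e was not called in any of the 4 omissions, with changes of -0.02 to 0.11. Without EGF, 2 of 29 genes fell and 0 rose, where 0.179% of 12849 genes fell and 0.272% rose. Against 8C libraries 1 to 3, 4 genes fell, and against libraries 4 to 6, 5 fell, Fabp1 and Rbp2 being among them in both. Fabp1 dropped to 255, 273 and 287 TPM, against 845, 1395 and 2676 TPM in 8C, with no overlap (-2.36 ± 0.28, adjusted p = 0.0032). Rbp2 reached 25.1, 34.0 and 43.2 TPM, also below all 7 libraries of 8C (-1.87 ± 0.33, adjusted p = 0.028), and lost its call without 8C library 2 or 3 or without any of the 8C -EGF libraries. Alpi, at 42.1, 67.6 and 71.5 TPM, was below every 8C library but not called (-1.86 ± 0.42, adjusted p = 0.080). Other lineages also moved without EGF. Of 10 crypt base stem cell genes 2 rose, Olfm4 by 4.41, of 8 Paneth cell genes 2 rose, Defa22 by 3.87, the stromal gene Vim rose by 2.03 and 1 of 8 goblet cell genes fell, and their part in the result was not tested.

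Other enterocyte genes, from lists outside the 33, were counted in the same fits. Between 8C and ENR, 10 of 27 other absorptive transporters were lower in 8C and 2 higher, with Slc6a20a, an imino acid transporter, at -4.12. Of 25 other brush border genes 6 fell and 2 rose, with Ggt1, gamma-glutamyltransferase, at -4.47 and Espn, the actin bundler espin, at 1.82. Of 18 other lipid absorption genes 4 fell and 2 rose, Mgll, monoglyceride lipase, by 3.81. Among 21 enterocyte transcription factors 3 fell and 1 rose, with Isx, a homeobox regulator of vitamin A uptake, at -2.82. Medians of these lists lay between -0.76 and -0.21.

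In crypts, most of these genes were higher on day 2 after irradiation and lower on day 3, in TPM as deposited. On day 1, 3 of 32 genes rose and 0 fell, where 1.43% of 10802 genes rose and 5.48% fell. An unadjusted p under 0.05 in limma was found for 5 of the 32 and for 3555 of the 10802. The 3 that rose were Apoa1, from 2434 and 1563 TPM in normal crypts to 5508 and 6044 TPM (1.56 ± 0.36, adjusted p = 0.015), Slc10a2 (1.41) and Slc5a1 (1.07). Each lost its call without 1 or more single libraries, normal crypt library 2 among them. Mitochondrial transcripts took 29.7% to 31.8% of the TPM on day 1 and 32.6% to 39.9% on day 2, against 12.7% to 18.1% in normal crypts. With mitochondrial genes removed, 3 genes rose on day 1 and 22 on day 2, and 0 fell on either day. On day 2, 17 rose and 0 fell, where 4.55% of genes rose and 26.2% fell, and the median change was 1.21 while that of all genes was -0.61.

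The day 2 rises took in most roles. Slc10a2 went from 4.72 and 3.90 TPM to 42.4 and 33.1 TPM, the largest rise among transporters (2.86 ± 0.39, adjusted p = 8.2e-05), with Slc6a19 at 2.78 and Slc5a1 at 2.22. Fabp2 rose from 2855 and 1153 TPM to 14270 and 11748 TPM (2.83 ± 0.58, adjusted p = 0.0020). Lct rose from 16.6 and 17.9 TPM to 163 and 72.7 TPM (2.59 ± 0.66). Cyp3a11 had the largest rise of all (3.40 ± 1.14, adjusted p = 0.029), at 326 and 148 TPM against 18.2 and 21.8 TPM, a call lost when any of the 4 libraries was left out. Cdhr2 (1.55) and Cdhr5 (1.13) rose among microvillus genes, and Ada, at 8.69 and 8.30 TPM before, reached 70.1 and 21.5 TPM (2.07 ± 0.56). Without library 1 of that day, 10 genes were called, and the calls lost were those of Ada, Apoa4, Apoc3, Cdhr5, Cyp3a11, Lct and Rbp2. Without normal crypt library 2, those of Ada, Apoa4, Apoc3, Cyp3a11 and Rbp2 were lost. Summed proliferation markers were at 98.2 to 116 TPM on day 2 against 351 to 454 TPM in normal crypts, and leukocyte markers at no more than 49.8 against 147 to 235 TPM. Of 8 Paneth cell genes 5 fell, from a sum of 14759 to 34305 TPM to 6906 to 10137 TPM, 5 of 8 crypt base stem cell genes fell, and of 20 enterocyte transcription factors 8 fell and 0 rose. The part of these in the result was not tested.

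**Figure D4:**
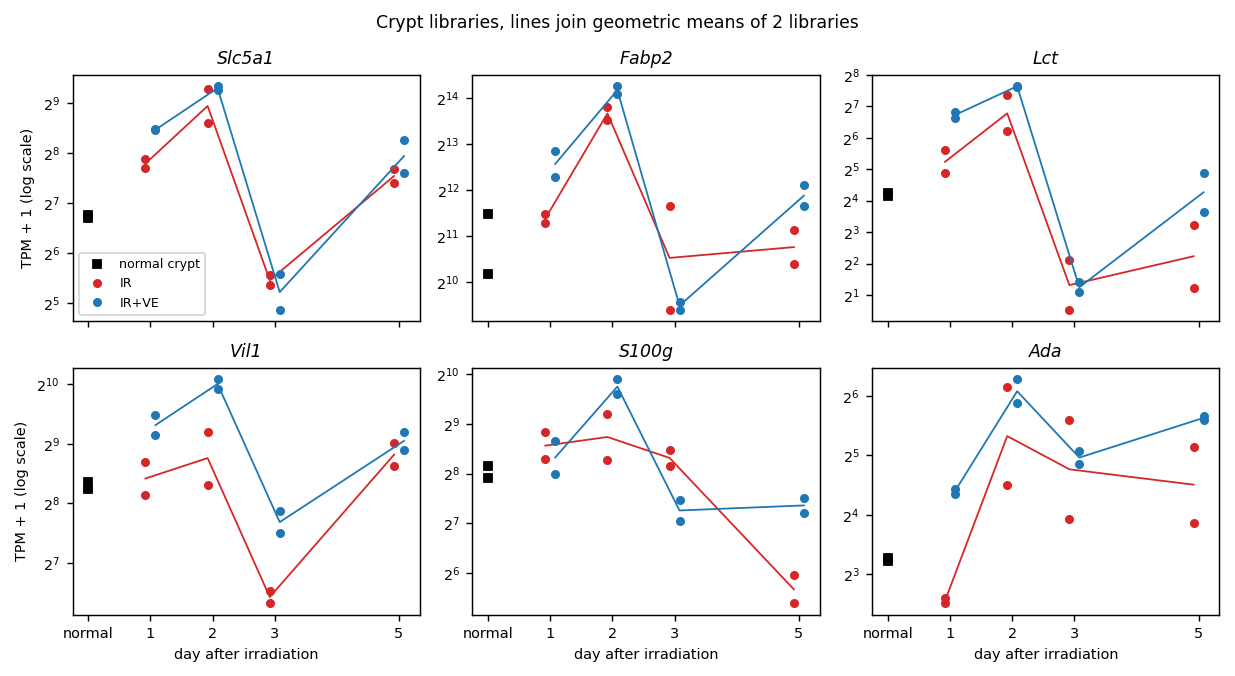
TPM + 1 (log axis) of Slc5a1, Fabp2, Lct, Vil1, S100g and Ada against days after irradiation, with normal crypts as squares, IR in red, IR+VE in blue, a point per library and lines through geometric means. All 6 genes are higher on day 2 than on day 1 in both courses, and Slc5a1, Lct and Vil1 are lowest on day 3.

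Day 3 turned the direction. There 22 of 32 genes fell and 1, Ada, rose, in a day on which 51.3% of all genes fell and 2.56% rose, and the median change was -1.70 against -1.03 over all genes. Fabp6 showed the largest fall, from 1886 and 1397 TPM to 30.3 and 124 TPM (-4.70 ± 0.88, adjusted p = 0.00069). Anpep fell from 1338 and 949 TPM to 195 and 87.9 TPM (-3.10 ± 0.41) and Khk from 280 and 207 TPM to 68.2 and 30.1 TPM (-2.38 ± 0.37). Cdhr2, at 52.1 and 66.2 TPM before, fell to 15.7 and 14.8 TPM (-1.88 ± 0.31), and Slc15a1 went from 22.1 and 17.9 TPM to 7.61 and 3.80 TPM (-1.70 ± 0.39). Ada measured 47.5 and 14.2 TPM, against 8.69 and 8.30 TPM (1.52 ± 0.56, adjusted p = 0.026), a call lost without either normal crypt library or without IR day 3 library 1. Slc6a19, at 42.8 and 20.7 TPM against 30.7 and 28.9 TPM, and S100g, at 355 and 283 TPM against 283 and 240 TPM, were not called. Mitochondrial transcripts took 37.9% and 48.4% of the TPM on day 3. Of 20 enterocyte transcription factors 17 fell, and genes fell in 8 of 10 for proliferation, 6 of 8 for crypt base stem cells, 5 of 8 for leukocytes and 4 of 8 for goblet cells, and their part was not tested. After quantile normalization the median of all genes was at 0.03, and 11 of the 33 fell and 4 (Ada, Slc10a2, S100g and Slc6a19) rose. Scaling to the 75th percentile gave 9 falls and 4 rises. The share of all genes called after either rescaling was not counted. Under every rescaling and left-out library, 9 falls held, those of Alpi, Anpep, Enpep, Fabp6, Khk, Lct, Mgam, Mttp and Sis. On day 5, 2 genes rose and 3 fell, where 10.2% of genes rose and 5.61% fell. Slc10a2 stood at 21.4 and 24.3 TPM (2.17 ± 0.39) and Slc6a19 at 76.2 and 72.9 TPM (1.30 ± 0.30), a call lost at the 75th percentile, while S100g was down to 40.8 and 60.8 TPM (-2.36 ± 0.31, adjusted p = 9.6e-05), with Lct at -1.96 and Khk at -1.47. The calls of Lct and Khk ended without single libraries, those without normal crypt library 1 or IR day 5 library 2 among them. That of Lct was also lost with mitochondrial genes removed, a pseudocount of 0.1, no minimum TPM or only the groups compared in the fit. On that day 7 of 8 leukocyte genes, 4 of 8 Paneth cell genes and 4 of 8 enteroendocrine cell genes also fell, and their part in the result was not tested.

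**Figure D5:**
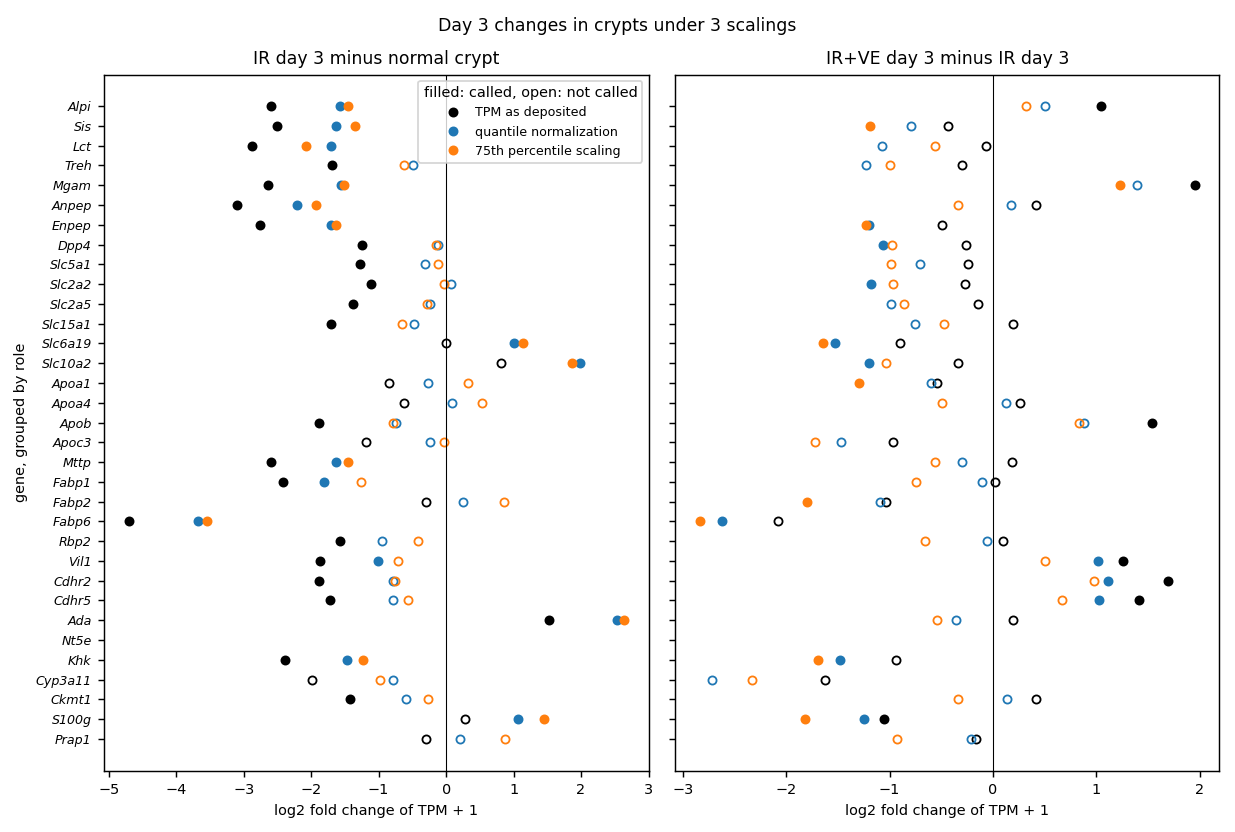
Log2 fold change of TPM + 1 on day 3, for IR minus normal crypt and for IR+VE minus IR, from TPM as deposited, after quantile normalization and after scaling to the 75th percentile, with filled points for called genes. Rescaling moves every tested gene to the right in the first panel and to the left in the second, and 22 falls in the first become 11 and 9.

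Crypts of mice given both compounds were compared with irradiated crypts of the same day, which are also the libraries compared with normal crypts above. On day 1, 0 of 32 genes were called in limma, where 0.00926% of genes rose and 0% fell. An unadjusted p under 0.05 in limma was found for 16 of the 32 and for 1424 of all 10802 genes. Both IR+VE libraries lay above both IR libraries for 28 of the 32, against 36.2% of genes tested, and 0 lay below, against 2.75%. Slc15a1 was at 76.5 and 83.6 TPM against 27.8 and 19.6 TPM (1.73 ± 0.39, adjusted p = 0.15) and Slc6a19 at 95.3 and 112 TPM against 33.7 and 43.1 TPM (1.41 ± 0.30, adjusted p = 0.13). Without IR day 1 library 1, 7 genes were called. The mitochondrial share was lower with the compounds on both days, without overlap, at 17.4% to 23.4% against 29.7% to 31.8% on day 1 and 26.3% to 29.2% against 32.6% to 39.9% on day 2, and its part in the separation of the libraries was not tested. With mitochondrial genes removed, the median change of the genes was 0.72 in place of 0.91 on day 1 and 0.44 in place of 0.61 on day 2. On day 2, 3 genes rose and 0 fell, where 8.31% rose and 0.0648% fell, and 24 of 33 lay above without overlap, against 68.8% of genes, with 0 below, against 3.14%. They were Vil1, at 971 and 1084 TPM against 589 and 318 TPM (1.24 ± 0.28, adjusted p = 0.031), Alpi (1.14) and S100g (1.01). All 3 calls were lost once libraries were rescaled, or without IR day 2 library 2 or either IR+VE library. In the 2 courses together, 31 of the 33 genes had their highest crypt mean in IR+VE day 2 and 19 their lowest in IR+VE day 3. This ranking was not made for all genes, of which 68.8% lay above IR in both IR+VE libraries on day 2.

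On day 3, 6 of 32 genes rose against IR day 3 and 1 fell, while 31.6% of all genes rose and 0.0555% fell, a share of rises above that among the 32, and the median change of the genes was -0.16 against 0.69 over all genes. All 3 microvillus genes rose, Cdhr2 from 15.7 and 14.8 TPM to 65.0 and 40.8 TPM (1.70 ± 0.31, adjusted p = 0.00079), Cdhr5 by 1.42 and Vil1 by 1.26. Mgam rose from 17.8 and 13.1 TPM to 81.4 and 47.0 TPM (1.95 ± 0.41), Apob by 1.54 and Alpi by 1.05. The Apob call was lost without IR day 3 library 2 or IR+VE day 3 library 1, and that of Alpi without either IR library or IR+VE library 2. S100g fell from 355 and 283 TPM to 132 and 175 TPM (-1.06 ± 0.31, adjusted p = 0.011), a call lost without library 1 of either group. Without overlap, 7 genes lay above, against 71% of genes, and 4 lay below, against 1.91% (S100g, Slc6a19, Khk and Cyp3a11). Slc6a19 was at 19.5 and 12.3 TPM against 42.8 and 20.7 TPM (-0.90 ± 0.30, adjusted p = 0.021). After quantile normalization, which took the median of all genes to -0.08, 3 genes rose (the microvillus genes) and 8 fell (Enpep, Dpp4, Slc2a2, Slc6a19, Slc10a2, Fabp6, Khk and S100g). At the 75th percentile, 1 rose (Mgam) and 8 fell, and all 3 microvillus calls were lost. The share of all genes called after these rescalings was not counted. Other programmes rose in the same contrast, in TPM as deposited, with 8 of 20 enterocyte transcription factors, 5 of 10 proliferation genes, 4 of 8 crypt base stem cell genes, 3 of 8 goblet cell genes, 2 of 8 enteroendocrine cell genes and 2 of 3 tuft cell genes called higher and 0 lower, and their part in the result was not tested. The mitochondrial share was 25.4% and 41.5% against 37.9% and 48.4%, with overlap.

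On day 5, 0 of 32 genes were called in limma, where 0.0185% of genes rose and 0% fell. An unadjusted p under 0.05 in limma was found for 3 of the 32 and for 178 of all 10802 genes. Both libraries lay above for 22 of the 32, against 17.3% of genes, and below for 1, Slc10a2, against 10.6%. Lct was at 28.8 and 11.5 TPM against 8.38 and 1.35 TPM (2.04 ± 0.66) and S100g at 147 and 181 TPM against 40.8 and 60.8 TPM (1.69 ± 0.31, adjusted p = 0.26). Averaged over the 4 days, 4 genes rose and 0 fell, Apob, Mgam, Lct and Cdhr2 by 1.13, 1.11, 1.08 and 1.04, where 3.54% of genes rose and 0.00926% fell. All 4 calls were lost after any rescaling, and without IR day 1 library 2 or IR day 2 library 2. Whether the effect of the compounds differed between days was tested with an F test in limma, and 2 of 32 genes passed, S100g and Slc6a19 (adjusted p = 0.0468 for both), where 1.75% of genes passed. For S100g the 4 differences of IR+VE from IR were -0.24, 1.01, -1.06 and 1.69 from day 1 to day 5, and for Slc6a19 they were 1.41, 0.35, -0.90 and 0.54. Neither passed after quantile normalization or scaling to the 75th percentile, and 0 to 4 genes passed when single libraries were left out.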

How the data were processed

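Per the submitters' processing notes, the authors used Trimmomatic 0.39, STAR 2.7.3a (mm10) and featureCounts, and deposited a table of TPM values for 67 libraries. How counts became TPM, and the depth, are not given in the sources used here. Libraries were grouped by condition and replicate number in the labels. Values were taken as log2(TPM + 1) in R 4.3.3, genes whose mean in the fitted libraries reached 1 TPM were tested with limma 3.58.1 (lmFit, eBayes with trend and robust), and p-values were adjusted by Benjamini-Hochberg over all genes tested. A call needed an adjusted p under 0.05 and at least 2-fold. Organoid fits held the groups compared, and the crypt fit held all 9 groups. The fits were tested on simulated data with 200 changed genes.

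The 33 genes, the other lists and the tests were chosen with earlier results of these data known. In each comparison full values went to the called gene with the largest rise and the largest fall of each role, with further genes counted or named for contrast. Coordinates and promoters follow GRCm38 (GENCODE and RefSeq). Other settings tried were the removal of mitochondrial genes, scaling to the 75th percentile, quantile normalization, 0.1 as pseudocount, no fold limit, a TPM minimum of 5 or no minimum, plain eBayes, other groups in the fit, a replicate block, replicate numbers 1 to 3 or 4 to 6, and leaving out each library. Leaving out number 7, rescaling after removal of mitochondrial genes, and the test between days were chosen after seeing the data. Replicate numbers were read as pairs where every correlation of deviations was above 0.1. The libraries of 8C -VE met this rule with those of ENR (lowest 0.313), 8C -E and 8C -V, and the other organoid comparisons did not. For 8C, number 2 alone missed it, at 0.0564 with 8C -VE and -0.319 with ENR, other numbers being at 0.385 to 0.645 and 0.153 to 0.491. Deviations were taken from each condition's own mean. With 3 libraries against 7, the rule therefore cannot show whether libraries belong to the same set. Crypt groups share only 2 numbers, too few for this rule, with correlations from -0.197 to 0.308.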

Additional observations from a re-analysis of the deposited data

Results flagged for a closer look

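Among 149 groups of 4 to 10 organoid libraries tested for a single library standing apart from its group (Dixon's test), 17 had one, where chance alone flags about 1 in 20. ENR library 7 accounted for 9 of them, all as the lowest value. It held Anpep at 36.6 TPM, Apoc3 at 14.5, Fabp1 at 762, Fabp2 at 304, Rbp2 at 203, Khk at 305, Cyp3a11 at 6.57, S100g at 135 and Prap1 at 725 TPM. Library 7 of 8C -VE accounted for 4, also as the lowest value, with Fabp1 at 512, Fabp2 at 344, Rbp2 at 145 and Cyp3a11 at 3.34 TPM. Slc10a2 was highest in library 7 of 8C -E (7.54 TPM) and of 8C (7.04 TPM). Libraries numbered 7 also had the highest mitochondrial shares among organoids. These were 4.69% in ENR, 5.47% in 8C -VE, 6.64% in 8C -E and 6.31% in 8C, against at most 3.81% elsewhere. Their part in the flagged values was not tested. The remaining ones were Dpp4 in 8C library 2 (44.7 TPM, lowest) and Vil1 in 8C -V library 6 (496 TPM, lowest). Without number 7, 23 genes fell from ENR to 8C in place of 21.

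Effects differed between settings of the study in 3 cases. The change of Treh with VPA and EPZ6438 was more negative in the 8C medium than in ENR, by -2.42 on the log2 scale (adjusted p = 0.037, limma interaction term). It was -1.71 with replicate numbers 1 to 3 and -2.71 with numbers 4 to 6, was not called with the replicate block, and was lost without any of 14 of the 24 libraries. The change with the compounds in irradiated crypts differed between days for S100g and for Slc6a19 (adjusted p = 0.0468 for both, limma F test). Neither passed under any rescaling, with no minimum TPM, with plain eBayes or with mitochondrial genes removed, and 0 to 4 genes passed when single libraries were left out.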

How the results depend on the processing

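Of 125 calls of the 33 genes over all comparisons, 58 held under every alternative and every left-out library. The 1 reversal was Slc2a2 on IR day 3 against normal crypts, which was -1.11 as deposited, 0.0694 after quantile normalization and 0.0697 when mitochondrial genes were removed first, and the cause was not tested for this or any other change given here. Counts are of genes called in either direction. For 8C -V minus 8C -VE, the count of 2 became 1 with quantile normalization or a minimum of 5 TPM and 0 in numbers 4 to 6. For the interaction of VPA and EPZ6438, 0 became 1 with quantile normalization, no minimum or without number 7, 7 in numbers 1 to 3 and 3 in numbers 4 to 6. For ENR +VE minus ENR, 1 became 2 with quantile normalization or without number 7, 0 with a minimum of 5 TPM, 3 with no minimum fold or all 10 groups in the fit, 11 with the replicate block or numbers 1 to 3, and 6 against numbers 4 to 6. For the interaction of medium and VE, 1 became 0 with a minimum of 5 TPM, 2 with all groups, 8 and 12 in numbers 1 to 3 and 4 to 6, and 3 without number 7. For 8C -GSK3i, 0 became 11 with the replicate block, 1 with all groups, 12 in numbers 1 to 3 and 1 in 4 to 6, for 8C -Pex 4, 6 and 1 with the block, numbers 1 to 3 and 4 to 6, for 8C -bFGF 4 with the block and 5 in numbers 1 to 3, and for 8C -EGF 2 became 1 with no minimum, and 4 and 5 in numbers 1 to 3 and 4 to 6. In these omissions the same number was not taken as a match, since the libraries' deviations did not meet the pairing rule given above. In crypts, IR day 1 went from 3 to 1 with no minimum or only the groups compared. IR day 3 went from 23 to 15 with quantile normalization, with or without mitochondrial genes, and to 13 at the 75th percentile, likewise. For IR+VE against IR, day 1 went from 0 to 1 with the replicate block, day 2 from 3 to 5 with the block and to 0 with each rescaling, without mitochondrial genes or with no minimum, and day 3 from 7 to 11 with quantile normalization, 12 and 13 without mitochondrial genes at the 75th percentile and with quantile normalization. The mean of 4 days went from 4 to 14 with no minimum fold and to 0 with each rescaling or without mitochondrial genes. The test between days gave 0 in place of 2 with each rescaling, no minimum, plain eBayes or without mitochondrial genes. With single libraries left out, counts ranged from 10 to 18 for 8C -VE minus ENR, 1 to 2 for ENR +VE, 0 to 2 for the interaction of medium and VE and for 8C -GSK3i, 1 to 2 for 8C -EGF, 0 to 3, 10 to 20 and 3 to 5 for IR days 1, 2 and 5, 0 to 7 and 0 to 5 for IR+VE days 1 and 2, 0 to 7 for the mean of days and 0 to 4 for the test between days. A group left with 1 library was assumed to vary like the others. Depth is unknown, so counting error of low genes such as Slc10a2, Nt5e and Fabp6 could not be given.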
